A study of Drosophila melanogaster with 39 samples.

Results

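Regenerating fragments of Drosophila leg discs were set against intact wild-type first leg discs, each measured on 2-colour spotted arrays next to 1 pooled leg disc reference. Arrays labelled as regenerating discs against the reference (4 arrays) and arrays labelled as prothoracic, or first, leg discs (4 arrays) entered the comparison, 8 of the 39 arrays of the series. The study asked which transcripts accompany transdetermination, the switch of disc cells from one appendage identity to another. The fragments stood in that design for regeneration without such a switch.

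The regenerating samples were 3/4 fragments of second leg discs that had been cultured for 3 to 5 days in the abdomens of adult female flies, where disc cells proliferate. The labels state that this fragment does not transdetermine. The stock and the sex of the larvae that gave these fragments are not given in the sources used. The first leg discs were whole discs, each from 1 male wandering larva, late in its last instar, of the wild-type strain OregonR. The reference, shared by all 8 arrays, was amplified RNA pooled in equal parts from all 3 pairs of leg discs of males and females. RNA of every sample had passed through 2 rounds of linear amplification. The discs and fragments had been washed to reduce larval fat body. The labels call the arrays of a group independent replicates, but they do not say which arrays share animals or dissections.

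Imaginal discs are sacs of epithelium in the fly larva that form the adult appendages at metamorphosis. A cut leg disc heals, proliferates and replaces or duplicates the missing pattern when it is cultured in the abdomen of an adult fly. The adult host does not provide the hormonal conditions of metamorphosis, so the implanted cells stay undifferentiated while they grow. Leg discs also carry adult muscle precursors, tracheal branches and sensory neurons besides the epithelium, and an implant can pick up blood cells of its host.

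Each value below is a log2 ratio of a disc sample over the pooled reference, so 1 unit is a doubling and a positive value means more RNA than in the reference. The difference is fragments minus first leg discs, fitted by least squares over all 39 arrays with a term for dye orientation, and is given with its standard error (SE). Because of the dye term it can depart a little from the difference of the array means. A gene was called where the limma adjusted p (Benjamini-Hochberg over all probes tested) was below 0.05. With bulk RNA, fewer cells of a type and less RNA per cell cannot be told apart in any difference below.

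The fragment arrays held fewer values than the first leg disc arrays. Of 16361 gene probes, fragment array 2 held values for 61.5%, while the other 3 fragment arrays held values for 18.1 to 29.7%. The first leg disc arrays held values for 48.7 to 55.1%. Fragment array 3 had the widest spread of values over its probes (SD 1.13), against 0.75 to 0.95 on the other 3 fragment arrays and 0.45 to 0.73 on the first leg disc arrays. First leg disc array 4 came from another slide series and another dye orientation than the other 3, and correlated with them at 0.22 to 0.30 over shared probes, lower than the fragment arrays among themselves (0.41 to 0.76). A probe was tested where at least 3 of 4 arrays of both groups held a value, which left 3832 probes for 3195 genes. Of these probes 755 were called (19.7%), 216 higher (5.64%) and 539 lower (14.1%) in fragments. The results below are given by gene. Genes that only fragment array 2 measured among the fragments were left untested (4897 probes).

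Of the 3195 genes tested, 663 were called (20.8%). Fragments were higher than first leg discs for 193 genes (6.04%) and lower for 470 genes (14.7%). Among the called genes, the fragment arrays and the first leg disc arrays that held a value did not overlap for 387. Some of these genes lacked a value on an array. Over all 3195 genes tested, the groups did not overlap for 520 (16.3%). The called genes were picked on these same arrays, so their lack of overlap is no separate evidence. A log2 difference beyond 1 was reached by 108 of the genes called higher and by 199 of the genes called lower. The median difference over all genes tested was -0.20.

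The split between higher and lower rested on where zero was set on each array. Every array was centred on the median of all its own probes, and the fragment arrays held different sets of probes. When each array was instead centred on the 2312 probes with a value on all 8 arrays, every difference moved up by 0.23 to 0.38. With that centring 433 genes were called higher (13.6%) and 186 lower (5.82%), and the median over all genes was 0.11. All 193 genes called higher with the first centring were called higher with both, and 186 of those called lower were called lower with both. No gene was called in opposite directions. When the 8 arrays were fitted alone, without the spread learned from the rest of the series, 27 genes were called higher (0.845%) and 77 lower (2.41%). Without fragment array 3, 109 genes were called higher (3.41%) and 305 lower (9.55%). Without first leg disc array 1, 335 probes were called lower, against 539 with all arrays. Counts of gene groups below are given with the first centring, followed by the count called with both. At unadjusted p below 0.05, 340 genes were higher and 794 lower, and this unadjusted count is given for a group where none of it was called in a direction.

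**Figure D1:**
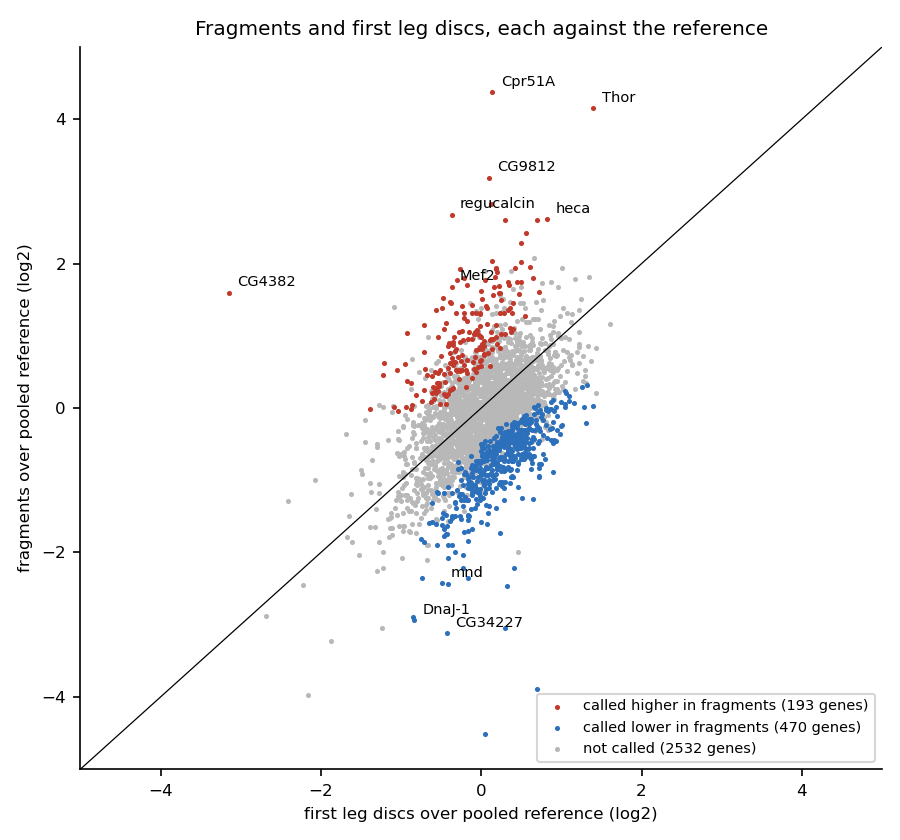
Mean log2 ratio over the pooled leg reference in fragments (vertical axis) against that in first leg discs (horizontal axis) for the 3195 genes tested, 1 point a gene. Filled colours mark the 193 genes called higher and the 470 called lower in fragments, grey marks the 2532 genes not called, and the line marks equal values.

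Cuticle genes held one of the largest differences. Cpr51A encodes a cuticle protein with a chitin-binding domain. Its log2 ratio was 4.54, 3.86, 4.54 and 4.54 on fragment arrays 1 to 4, against 0.80, -0.40, 0.73 and -0.56 on first leg disc arrays 1 to 4. All 4 fragment arrays lay far above every first leg disc array, and 3 of the 4 gave the same value to the second decimal. The difference was 4.23 (SE 0.40, limma adjusted p = 2.29e-08), a fold of 18.8, and it passed the test in the 8 arrays alone (adjusted p = 0.0011). Second minus first leg discs, measured through the wing disc in the same series, gave -0.29 for Cpr51A.

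Few cuticle genes could be tested: with Cpr51A, 15 of the 107 in the list with a probe. The list was matched by symbol and also took in Cpr, the cytochrome P450 reductase (-0.32, not called), which is no cuticle protein. Of the 15, 4 rose, Cpr51A among them, and none fell (1 lower at unadjusted p below 0.05), with a median difference of 0.60, and the same 4 were called with both centrings. Vajk4, a cuticle-related gene, read 2.60, 0.38 and 2.44 on fragment arrays 1 to 3, against 0.07, 0.28, 0.15 and 0.18 on first leg disc arrays 1 to 4. The fragment arrays lay above the first leg disc arrays, array 2 by little, and the difference was 1.63 (SE 0.36, adjusted p = 0.00308). The others were TwdlE and Cpr64Ad. TwdlE, of the Tweedle family of cuticle proteins, rose by 1.37 and Cpr64Ad by 1.31. Neither of these had a value on fragment array 4. Cpr66D (0.93) and Cpr5C (0.60) were not called. Without fragment array 3, 2 of the 15 were called higher.

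Genes tied to chitin, the sugar polymer of cuticle, showed a similar pattern, among them genes for enzymes that make, trim or modify it. Of 14 tested, 4 rose and 1 fell, with a median of 0.89. The 4 that rose were called with both centrings, and the 1 that fell was not. Cht6, a chitinase, read 0.81, -0.23 and 1.46 on fragment arrays 1 to 3, against -0.44, -0.18, -0.28 and -0.91 on the first leg disc arrays. Fragment array 2 fell among the first leg disc arrays. The difference was 1.22 (SE 0.23, adjusted p = 0.000676). The gene mmy, which makes the sugar nucleotide that chitin is built from, rose by 1.09. The chitin deacetylases Cda4 and verm rose by 1.07 and 1.03, and verm was not called without fragment array 3. The gene knk, needed to organise chitin, read -0.50, -0.61, -0.60 and -0.61 in fragments, against 0.15, -0.24, 0.02 and 0.44 in first leg discs, and fell by 0.68. The chitinase gene Cht5 (1.34) and obst-A (0.99) were not called. None of the 14 was called in the 8 arrays alone.

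Genes of the basement membrane and its integrin receptors gave 3 called higher and none lower of 10 tested (median 0.40, 0 lower at unadjusted p below 0.05), and the 3 were called with both centrings. Col4a1, a chain of type IV collagen, read 2.32, 2.17, 0.92 and 2.37 in fragments, against 1.25, 0.01, 0.79 and -0.61 in first leg discs. Fragment array 3 was the lowest of the fragments and lay below first leg disc array 1. The difference was 1.53 (SE 0.47, adjusted p = 0.0219). The integrin subunit gene Itgbn rose by 1.52, and stck, an adaptor at integrin attachment sites, by 0.68. Without fragment array 3, stck was not called (adjusted p = 0.312). The laminin genes LanA (-0.32) and LanB2 (0.12) were not called. Col4a1 is also made by blood cells and fat body, and its haemocyte companions are given with the cell type markers.

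**Figure D2:**
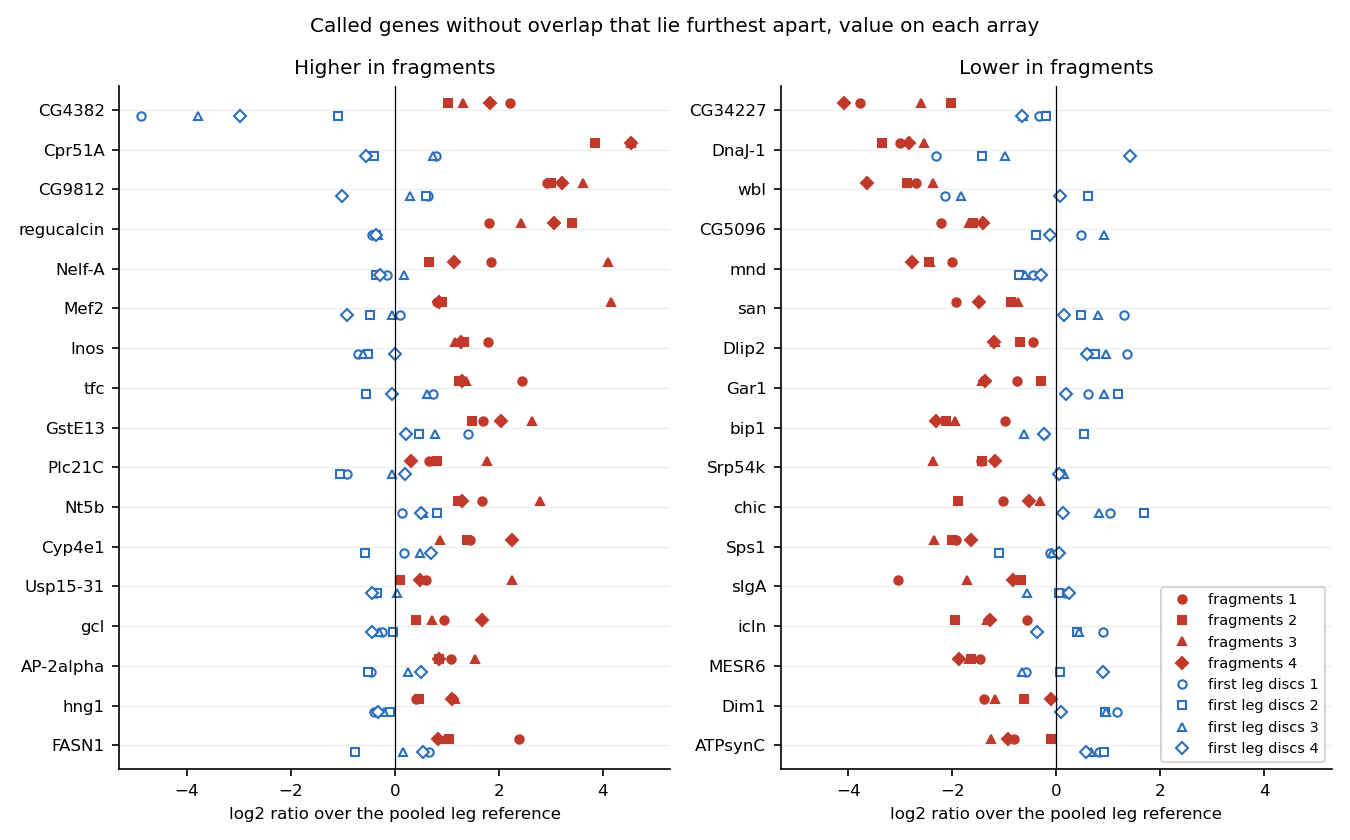
Log2 ratio over the pooled leg reference on each array (horizontal axis) for the called genes without overlap that lay furthest apart, genes higher in fragments in one panel and lower in the other. Filled red points are the 4 fragment arrays and open blue points the 4 first leg disc arrays, and the Cpr51A fragment points reach 4.54.

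Among the genes with a value on all 8 arrays and no overlap between groups, 15 named genes and 2 genes known only by a CG number were taken from each end. CG4382 had the highest difference of all genes tested. It read 2.22, 1.03, 1.32 and 1.84 in fragments, against -4.88, -1.09, -3.78 and -2.98 in first leg discs. The first leg disc arrays spread over more than 3 units, all below the reference, while the fragments lay above it. The difference was 4.75 (SE 0.61, adjusted p = 6.18e-05). For this gene second minus first leg discs also gave a large value, 3.23 (SE 0.78, adjusted p = 0.649).

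CG9812 read 2.92, 3.00, 3.63 and 3.22 in fragments, against 0.63, 0.60, 0.29 and -1.01 in first leg discs. The fragments kept within 1 unit of each other, and the difference was 3.09 (SE 0.34, adjusted p = 5.3e-07), a fold of 8.54. The gene regucalcin, for a calcium-binding protein, read 1.81, 3.41, 2.43 and 3.07 in fragments, against -0.43, -0.37, -0.33 and -0.36 in first leg discs. Here the first leg disc arrays were nearly equal, and each fragment array lay at least 2 units above them. The difference was 3.05 (SE 0.65, adjusted p = 0.00181), and other probes of regucalcin gave 3.79 and 3.66. For CG9812 the other probe, which had too few values to be tested, gave 1.62 (SE 0.60).

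Several of the genes that rose encode metabolic enzymes. Inos, the enzyme that commits glucose phosphate to inositol, read 1.79, 1.33, 1.16 and 1.27 in fragments, against -0.70, -0.51, -0.62 and 0.01 in first leg discs. The 4 fragment arrays lay within 1 unit, all above the reference, and the difference was 1.88 (SE 0.28, adjusted p = 5.31e-05). FASN1, fatty acid synthase, rose by 1.08, with fragment array 1 at 2.39 well above the other 3 (0.83 to 1.04). GstE13, a glutathione S-transferase, rose by 1.36, and Cyp4e1, a cytochrome P450, by 1.24. The Cyp4e1 call was lost without fragment array 4 (0.92, adjusted p = 0.068) and without first leg disc array 2 (1.01, adjusted p = 0.0514). GstE13 and Cyp4e1 belong to a list of 32 tested detoxification and redox genes, of which 2 rose and 4 fell. These shares, 6.25% and 12.5%, were near the 6.04% and 14.7% of all genes tested. The 4 that fell included Sod2, the mitochondrial superoxide dismutase (-1.39, SE 0.28, adjusted p = 0.00099), and the glutathione transferase gene GstZ1 (-0.98). With both centrings 2 of the 4 were called. Nt5b, a nucleotidase, rose by 1.25, while other probes matched to it, with too few values to be tested, gave 0.17 and 0.16.

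The remaining genes at the upper end act in signalling, trafficking and transcription. Plc21C, a phospholipase C, rose by 1.26, AP-2alpha, a subunit of the clathrin adaptor, by 1.13, and Usp15-31, a ubiquitin protease, by 1.21. The other Usp15-31 probe, with too few values to be tested, gave 0.05 (SE 0.51). The germ cell gene gcl rose by 1.17, hng1 by 1.11 and tfc by 1.37. Nelf-A, a subunit of the factor that pauses RNA polymerase II, read 1.85, 0.65, 4.10 and 1.13 in fragments, against -0.15, -0.36, 0.18 and -0.29 in first leg discs. Its value on fragment array 3 was more than 2 units above the other fragments. The difference was 2.20 (SE 0.68, adjusted p = 0.0225), and without that array it was 1.49 (adjusted p = 0.153). Without first leg disc array 1 or 2 it kept its size (2.17 and 2.10) but not its call (adjusted p = 0.053 and 0.0523). Usp15-31 was 0.75 without fragment array 3 (adjusted p = 0.102). FASN1 was 0.78 without fragment array 1 (adjusted p = 0.139) and 0.81 without first leg disc array 2 (adjusted p = 0.141). Its call was also lost, at 1.10 to 1.15, without fragment array 3 or first leg disc array 3 or 4.

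Mef2, the transcription factor that drives myoblast differentiation, rose on average, but 1 array carried much of the size. It read 0.81, 0.91, 4.16 and 0.85 in fragments, against 0.10, -0.47, -0.05 and -0.92 in first leg discs. All 4 fragment arrays lay above the first leg disc arrays, with array 3 over 3 units above the other fragments. The difference was 2.05 (SE 0.47, adjusted p = 0.00265). Without fragment array 3 it was 1.16 (adjusted p = 0.0182), and in the 8 arrays alone Mef2 did not pass (adjusted p = 0.0699). With the second minus first leg difference subtracted, which adds its error, Mef2 was at 1.39 and not called (adjusted p = 0.311).

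Of 38 myoblast and muscle genes with a probe, 11 were tested, 2 rose and none fell (median 0.33, 0 lower and 4 higher at unadjusted p below 0.05), and the 2 were called with both centrings. They were Mef2 and sns, an adhesion protein of myoblast fusion (0.64), and sns was not called without fragment array 3. The myoblast factor gene twi read 0.97, -0.27, -0.80 and 0.36 in fragments, against 0.35, 0.65, -0.08 and 0.44 in first leg discs, with overlap (difference -0.32, not called). The differentiated muscle gene Mlc2, a myosin light chain, read -2.61, -3.42, 0.50 and -2.44 in fragments, against -0.98, -1.18, -1.08 and -1.33 in first leg discs. Fragment array 3 again stood apart, here above all first leg disc arrays while the other 3 fragments lay below them. With it Mlc2 was not called (-0.76, adjusted p = 0.319), and without it Mlc2 passed the test as lower (adjusted p = 0.0115). Array 3 was thus high for Mef2 and Mlc2 together. Over the 8 members with 8 values the array medians ran from -0.34 to 0.30 in fragments, highest on array 3. In first leg discs they ran from -0.55 to -0.20, and these ranges overlapped. The part of muscle cells in these values was not tested.

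Leg identity genes were measured on few arrays. Dll, the selector of distal leg, read 1.97, 0.81, 2.01 and 1.63 in fragments, against 0.78, 0.86 and 0.44 on first leg disc arrays 1 to 3. Fragment array 2 lay among the first leg discs and the other 3 above them. The difference was 0.89 (SE 0.32, adjusted p = 0.0459), and the call was lost without fragment array 3 (0.73, adjusted p = 0.164). It was also lost, at 0.77 to 0.98, without fragment array 1 or 4 or without first leg disc array 1, 2 or 3. The other Dll probe, with too few values to be tested, gave 0.35 (SE 0.63). Of 11 tested genes of the proximal to distal axis Dll was the 1 that rose, with none lower (0 at unadjusted p below 0.05) and a median of -0.11. The proximal factor gene hth (1.01) and the distal factor genes al (-0.23) and Lim1 (0.78) were not called. None of 7 tested genes of the dorsal to ventral axis was called by limma, and 1 was higher at unadjusted p below 0.05.

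Antp, the Hox gene that specifies the second thoracic segment, read 1.09, 0.74 and 2.16 on fragment arrays 1 to 3, against 0.04, 0.64, -0.40 and -0.37 in first leg discs. The fragments lay above the first leg discs, array 2 by little. The difference was 1.33 (SE 0.43, adjusted p = 0.0316), and without fragment array 3 it was 0.80 (adjusted p = 0.28). The call was also lost, at 1.16 to 1.35, without first leg disc array 1, 3 or 4. Fragments came from the second leg segment and the control discs from the first. Second minus first leg discs gave -0.05 for Antp. Scr, which specifies the first thoracic segment, had a value on fragment array 2 alone among the fragments (-0.16), against -0.28 to 0.03 in first leg discs.

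The gene heca, which marks the imaginal cells that will proliferate and form adult tissue, read 2.75, 1.06, 3.54 and 3.14 in fragments, against 1.95, 1.49, 0.64 and -0.34 in first leg discs. Fragment array 2 lay among the first leg discs and the other 3 above them. The difference was 1.80 (SE 0.52, adjusted p = 0.0159), and the call was lost without fragment array 3 (1.54, adjusted p = 0.0725) and without first leg disc array 4 (1.42, adjusted p = 0.0738).

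The gene for the secreted ligand Wg, whose forced expression triggers leg to wing transdetermination, did not differ beyond its spread. It read 0.68, -1.24, -0.13 and 1.12 in fragments, against 0.05, 0.33, -0.53 and 0.29 in first leg discs. The fragments spread on both sides of the first leg discs, and the difference was 0.06 (SE 0.43, adjusted p = 0.931). Of 13 tested genes of the Wg pathway 1 rose: sgg, the kinase that marks the pathway's effector for destruction (0.78). It was called with both centrings, but not without fragment array 3.

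Genes known to respond to disc damage mostly lacked values on the fragment arrays. The puc gene, a phosphatase induced by JNK signalling at wounds, read 2.08, -0.20, 0.54 and 0.32 in fragments, against 0.35, -0.90, 0.06 and 1.39 in first leg discs, with overlap (difference 0.41, SE 0.58, adjusted p = 0.647). Of 29 damage response genes with a probe 8 were tested, and 1 rose: ftz-f1, a nuclear receptor that is also an ecdysone response gene (0.62). Ilp8, a relaxin-like hormone released by damaged discs, read 2.97 on fragment array 2 and had no value on any other of the 8 arrays. The JAK/STAT ligand gene upd1 read 1.12 on fragment array 2, against -0.44 to 0.41 on the 4 first leg disc arrays. Its relative upd3 read 0.70 on fragment array 2. The matrix metalloproteinase gene Mmp1 had no value on any fragment array. These genes were not tested.

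Other signalling groups gave few calls. Of 17 tested genes of the Dpp, Hedgehog and EGF receptor pathways, sog, an extracellular antagonist of Dpp-type ligands, rose (0.94) and Ras85D, the Ras GTPase, fell (-1.0). With both centrings only the rise was called, and without fragment array 3 neither gene was called. None of 20 Notch pathway genes (median -0.14), 11 Hippo pathway genes (median -0.01) or 4 JAK/STAT genes was called by limma with the first centring, and 1 of each group was called higher when arrays were centred on the shared probes. At unadjusted p below 0.05, with the first centring, 4 Notch pathway genes were lower, and 1 gene was higher and 1 lower in each of the other groups. Of 11 ecdysone response genes 3 rose: usp, the partner of the ecdysone receptor (1.34), ftz-f1 (0.62) and Cth, an enzyme of cysteine synthesis (1.07). None of the 3 was called without fragment array 3.

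Thor and mnd, both tied to amino acid supply, moved in opposite directions. Thor encodes 4E-BP, which blocks cap-dependent translation when insulin and TOR signalling is low. It read 3.85, 4.01, 3.83 and 4.91 in fragments, against 2.54, -0.39 and 1.22 on first leg disc arrays 1 to 3. All fragment arrays lay above all first leg disc arrays, which themselves spread over almost 3 units. The difference was 2.75 (SE 0.74, adjusted p = 0.0127), a fold of 6.74. In the 8 arrays alone Thor was not called.

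The mnd gene encodes an amino acid transporter without which discs fail to grow. It read -2.01, -2.46, -2.43 and -2.77 in fragments, against -0.46, -0.72, -0.61 and -0.29 in first leg discs. Both groups were tight and lay apart by more than 1 unit. The difference was -1.93 (SE 0.33, adjusted p = 0.000172), and it passed the test in the 8 arrays alone (adjusted p = 0.00382). Second minus first leg discs gave 0.06. A further amino acid transporter gene, slif, fell by 0.79 and was called with the first centring only. Of 10 insulin and TOR pathway genes tested, Thor rose and mnd and slif fell (median -0.44), while S6k (0.18) and Rheb (-0.19) were not called.

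Proteasome genes had the lowest median of the groups with at least 10 tested genes. Of 30 tested, 14 fell and none rose (1 higher at unadjusted p below 0.05). The median was -0.72, against -0.20 for all genes, and 28 of the 30 differences were below 0. With both centrings 8 were called lower. The arrays of both groups did not overlap for 11 members, all lower in fragments, against 16.3% of all genes tested in either direction. Prosbeta5, a catalytic subunit of the core particle, read -1.31, -0.27, -0.86 and -0.28 in fragments, against 0.84, 1.15, 0.75 and 0.07 in first leg discs. Every fragment array lay below the reference and every first leg disc array above it, and the difference was -1.29 (SE 0.21, adjusted p = 0.000119). Rpn11, the subunit that strips ubiquitin from substrates, read -1.16, -2.0, -1.37 and -1.41 in fragments, against -0.01, -0.67, 0.07 and 0.13 in first leg discs, and fell by 1.32 (adjusted p = 0.000413). The ubiquitin receptor gene Rpn10 fell by 1.52 and Rpn8 by 0.89. In the 8 arrays alone 1 member was called lower. Over the 28 members with 8 values, the median on each array ran from -0.69 to -0.24 in fragments and from -0.08 to 0.56 in first leg discs, so the groups did not overlap. The same medians over all 2017 genes with 8 values ran from -0.23 to -0.01 in fragments and from 0.03 to 0.33 in first leg discs.

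Of 29 genes of ribosome assembly tested, 10 fell and none rose (median -0.59, 0 higher at unadjusted p below 0.05), and 4 were called lower with both centrings. Those 4 were Fib, the methyltransferase of box C/D small nucleolar RNPs, Gar1 of the pseudouridylation RNPs, the nucleolar protein gene mod and Polr1B, a subunit of RNA polymerase I. Fib read -1.22, -1.85, -1.20 and -1.30 in fragments, against -0.16, -1.11, 0.85 and 0.19 in first leg discs. The groups lay apart, though first leg disc array 2 came close to fragment array 3. The difference was -1.31 (SE 0.28, adjusted p = 0.00165). Gar1 fell by 1.69, and another of its probes gave -1.95. The differences of mod and Polr1B were both -1.21. The 10 also included Ran, a GTPase of nuclear transport, and Rrp1, which in flies is a DNA repair nuclease. The genes hoip (-1.13) and Nop60B (-0.60) were not called.

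Of 81 cytosolic ribosomal protein genes tested, 20 fell and none rose (median -0.47, 0 higher at unadjusted p below 0.05), and 9 were called lower with both centrings. Relative to the reference the fitted median was 0.20 in fragments and 0.58 in first leg discs. RpLP0, of the ribosomal stalk, had a difference of -1.58, and RpS4 and RpL19 each fell by 0.98. Over the 67 members with 8 values the array medians ran from -0.26 to 0.52 in fragments and from 0.11 to 1.08 in first leg discs, and these ranges overlapped. Among 46 translation factors and tRNA synthetases 6 fell and none rose (median -0.43, 0 higher at unadjusted p below 0.05), and 3 were called with both centrings. The share that fell, 13.0%, was below the 14.7% of all genes tested. They included eIF5 (-1.05), eIF3e (-1.04) and the RNA helicase gene eIF4A (-0.88).

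**Figure D3:**
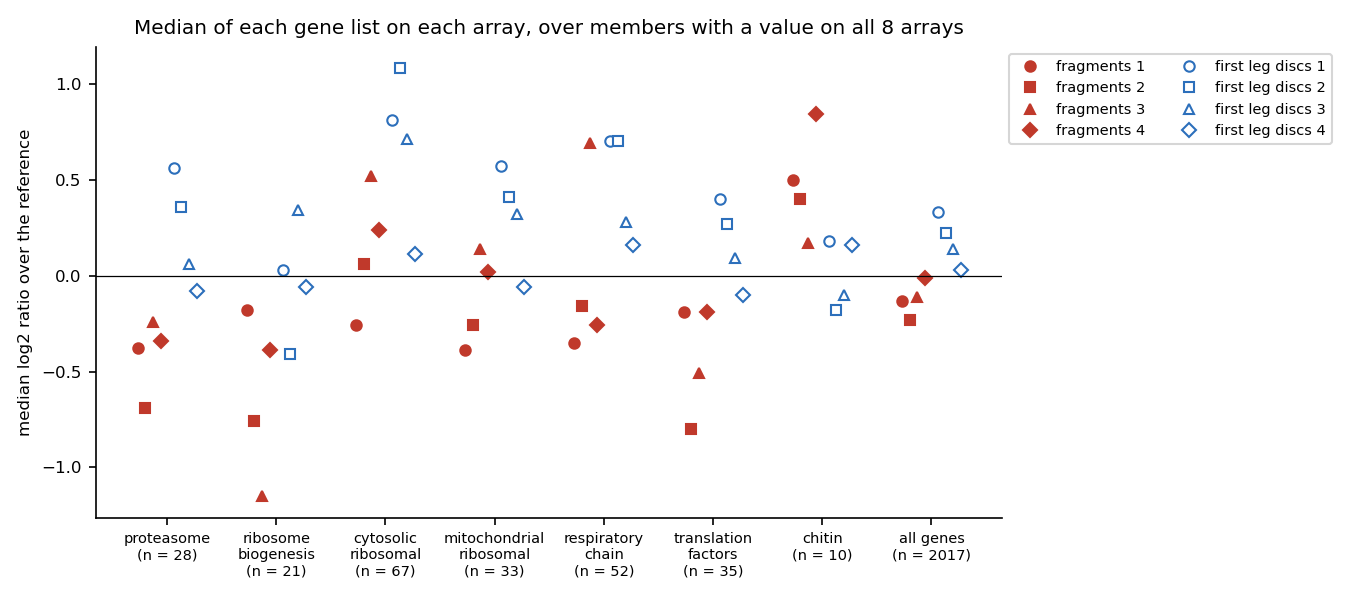
Median log2 ratio over the pooled leg reference on each array for 7 gene groups and for all genes, over the members with a value on all 8 arrays. Filled red points are the 4 fragment arrays and open blue points the 4 first leg disc arrays, and for the proteasome the ranges are -0.69 to -0.24 in fragments and -0.08 to 0.56 in first leg discs.

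Of 47 mitochondrial ribosomal protein genes 14 fell (29.8%) and none rose (median -0.33, 3 higher at unadjusted p below 0.05). With both centrings 5 were called lower, and with the shared-probe centring 6 were called higher. The largest calls were mRpL24 (-1.34) and mRpS2 (-1.22). Of 65 respiratory chain and ATP synthase genes 10 fell and 1 rose (median -0.45). The share that fell, 15.4%, was near the 14.7% of all genes tested, and 6 were called lower with both centrings. ATPsynC, subunit c of the ATP synthase ring, read -0.81, -0.10, -1.26 and -0.94 in fragments, against 0.82, 0.92, 0.66 and 0.56 in first leg discs. Every fragment array was below the reference and every first leg disc array above it, and the difference was -1.53 (SE 0.25, adjusted p = 0.000132). The alpha subunit gene blw fell by 1.15 and SdhD of succinate dehydrogenase by 1.24, while ND-ASHI of complex I rose by 0.57. Without fragment array 3 ND-ASHI was not called. On fragment array 3 the median of the 52 respiratory genes with 8 values was 0.69, within the first leg disc range of 0.16 to 0.70. Of 13 tested genes of glycolysis and pyruvate use 1 fell, Pdhb of pyruvate dehydrogenase (-1.17).

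Of 13 chaperone genes tested, 4 fell and none rose (median -0.68, 0 higher at unadjusted p below 0.05), and 2 were called with both centrings. Over the 10 members with 8 values the array medians ran from -2.27 to -0.97 in fragments and from -1.44 to 0.33 in first leg discs, and these ranges overlapped. Both groups had a fitted median below the reference, -1.17 in fragments and -0.51 in first leg discs. Hsp27, a small heat shock protein, read -2.48, -2.86, -1.23 and -3.18 in fragments, against -1.30, 0.11, -1.16 and 0.66 in first leg discs. Fragment array 3 lay just above first leg disc array 1, and the other 3 fragments lay below all first leg discs. The difference was -2.01 (SE 0.39, adjusted p = 0.000672). Hsp110 fell by 1.49, Gp93, the endoplasmic reticulum member of the Hsp90 family, by 0.71, and the co-chaperone gene DnaJ-1 by 2.09. DnaJ-1 read -3.01, -3.36, -2.54 and -2.83 in fragments, against -2.32, -1.43, -0.99 and 1.42 in first leg discs. First leg disc array 4, of the other slide series, was the highest. Without that array the DnaJ-1 difference was -1.18 (adjusted p = 0.22). Its call was also lost with the shared-probe centring (adjusted p = 0.0699), and without any 1 of the 4 fragment arrays (-2.23 to -1.96, adjusted p = 0.0506 to 0.0628). Hsp83 (-1.80) was not called.

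Cell cycle and replication genes showed little shift as a group: of 43 tested 6 fell and 1 rose (median -0.20, equal to that of all genes). Cdk1, the kinase that starts mitosis, was the 1 that was called lower with both centrings. It read -1.16, -1.09, -1.20 and -0.75 in fragments, against 0.82, 0.22, 0.08 and -0.06 in first leg discs. The groups lay apart, and the difference was -1.27 (SE 0.21, adjusted p = 0.000111). RnrL, the large subunit of ribonucleotide reductase, fell by 1.13, the mitotic kinase gene aurB by 0.82 and RfC4, of the clamp loader, by 0.76. CycD, the G1 cyclin that drives growth, rose by 0.81. Of 9 tested genes in the cell death list 3 fell with the first centring: RnrL, the checkpoint kinase gene lok and the initiator caspase gene Dronc. RnrL, the reductase subunit named above, is no cell death gene. None of the 9 was called with the shared-probe centring.

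Among chromatin regulators, 4 of 14 trithorax group genes fell: Iswi (-0.98), vtd (-1.15), Rbbp5 (-0.78) and Set1 (-0.96). With the shared-probe centring none of these was called. Of 11 Polycomb group genes cg rose by 0.97 and lolal fell by 0.83, and only the rise was called with both centrings. Without fragment array 3 the rise of cg was not called.

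The genes at the lower end of the comparison, beside mnd, Gar1, ATPsynC and DnaJ-1, serve protein sorting, splicing, cytoskeleton and metabolism. Srp54k, the subunit of the signal recognition particle that binds signal peptides, read -1.45, -1.43, -2.37 and -1.19 in fragments, against 0.04, 0.06, 0.15 and 0.05 in first leg discs. The first leg discs were at the level of the reference on every array, and each fragment array was more than 1 unit below. The difference was -1.68 (SE 0.24, adjusted p = 2.66e-05). The gene wbl, for a protein of the endoplasmic reticulum, read -2.71, -2.88, -2.37 and -3.64 in fragments, against -2.14, 0.61, -1.83 and 0.06 in first leg discs. Its first leg disc arrays fell into 2 low and 2 near the reference, and it fell by 2.05 (SE 0.49).

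The acetyltransferase gene san, needed for sister chromatid cohesion, read -1.94, -0.87, -0.74 and -1.49 in fragments, against 1.30, 0.48, 0.80 and 0.14 in first leg discs. The groups lay on opposite sides of the reference, and the difference was -1.90 (SE 0.31, adjusted p = 0.000142). Sps1, of the selenophosphate synthetase family, fell by 1.66, and slgA, proline dehydrogenase, by 1.57. Without fragment array 1, slgA was at -1.08 (adjusted p = 0.0537). The profilin gene chic, whose product supplies actin for filament growth, fell by 1.66. The splicing-related genes icln and Dim1 fell by 1.57 and 1.55. The others of the 15 were Dlip2 (-1.78), bip1 (-1.68) and MESR6 (-1.56).

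CG34227 read -3.78, -2.03, -2.61 and -4.08 in fragments, against -0.34, -0.20, -0.64 and -0.66 in first leg discs. The difference was -2.70 (SE 0.64, adjusted p = 0.00572). CG5096 fell by 1.97. Nplp3, chosen after its values were seen because it lacked 1 value and so fell outside the rule, had a still lower difference. It read -3.98, -3.74 and -5.67 on fragment arrays 1, 2 and 4, against -0.17, -0.01, -0.08 and 0.15 in first leg discs. Its first leg disc arrays were at the level of the reference, and its fragments lay at least 3 units below. The difference was -4.56 (SE 0.28, adjusted p = 2.45e-09). CG7214 (-4.59) and CG7203 (-3.35), chosen in the same way, were also called lower, and fragment array 3 held no value for any of the 3.

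**Figure D4:**
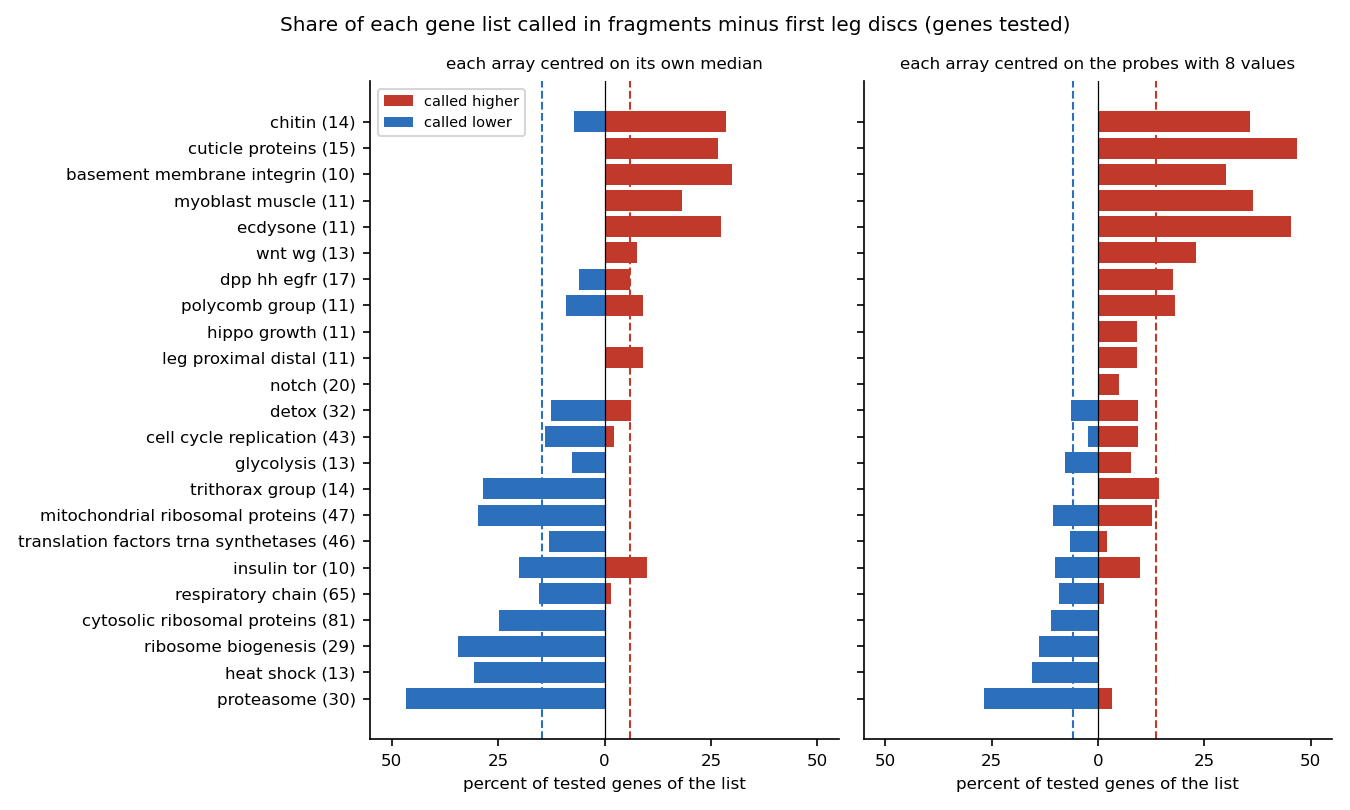
Percent of the tested genes of each group that were called higher or lower in fragments than in first leg discs, for groups with at least 10 tested genes, with each array centred on its own median on the left and on the 2312 shared probes on the right. Dashed lines mark the percent over all genes tested, 6.04 higher and 14.7 lower on the left.

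Markers of other cell types that an implant could hold were nearly all outside the tested set. No gene of the female host's yolk and eggshell list was tested, of 28 with a probe, and the yolk protein genes Yp1, Yp2 and Yp3 read 0.11, -0.26 and -0.05 on fragment array 2, near the level of the reference. Of 17 larval fat body genes with a probe 3 were tested and none was called by limma or had an unadjusted p below 0.05. Lsp2 read -0.68 on fragment array 2, against -3.65 to -3.30 in first leg discs. Lsp1gamma read -1.22 on fragment array 2, against -4.32 to -3.50 in first leg discs. Both were thus nearer to the reference in that fragment array than in any first leg disc array. On the same array Fbp2 (-1.53) and Lsp1beta (0.33) also lay above first leg discs (-3.74 to -2.32 and -1.41 to -0.60). The gene fat-spondin read 2.80 and 3.89 on fragment arrays 1 and 2, against -0.21 on first leg disc array 3. Adh read -3.29, -2.32, 3.05 and -3.84 on fragment arrays 1 to 4, with no value in first leg discs. Of 21 haemocyte genes with a probe, 4 to 6 had values on fragment arrays 1, 3 and 4, 18 on fragment array 2, and 10 or 11 on each first leg disc array. The 5 tested had array medians of 0.48 to 1.25 in fragments and -0.17 to 0.38 in first leg discs, over the members measured on each array. These ranges did not overlap, but each of the 5 genes by itself overlapped between the groups. Col4a1 was the 1 that rose. The blood cell genes eater (4.76), PPO2 (3.31), Hml (2.84), Sr-CI (2.83) and Pxn (1.05) had values on fragment array 2 alone among the fragments and none in first leg discs. Other members measured on that array alone among the fragments ran from 1.20 for Nplp2 and 0.80 for NimC2 to 0.03 for Tig, -0.15 for ush and -0.30 for srp. Untested members with values on 2 fragment arrays were vkg and PPO3. The gene vkg read 1.96 and 1.46 on fragment arrays 1 and 2, against 1.0 and 0.85 on first leg disc arrays 1 and 3. PPO3 read 0.64 and 1.96 on fragment arrays 2 and 3, against -1.77 to -0.08 in first leg discs. Col4a1 on fragment array 2 (2.17) was no higher than on fragment arrays 1 and 4. The part of blood cells in the Col4a1 result was not tested.

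Of 6 tested tracheal genes 1 rose, verm, which is also counted among the chitin genes and lost its call without fragment array 3. Among 3 tested neural genes 1 fell, the proneural gene sc (-1.31). Of 5 tested immune genes 1 rose, dl, an NF-kappaB factor (0.94). The antimicrobial peptide gene Drs read 3.64 and 3.25 on fragment arrays 2 and 4, with no value in first leg discs. Other untested immune peptide genes ran from -1.51 for Def to 2.11 for Mtk on fragment array 2. Among 5 tested wing and notum genes 1 rose, crol (0.66), which was not called without fragment array 3. The wing selector gene vg had a value on fragment array 2 alone among the fragments, at -0.84. The muscle gene Mhc read -7.02 and -4.84 on fragment arrays 1 and 2, against -4.83 to -3.46 in first leg discs, so both groups lay far below the reference. Among the other muscle genes with values on fragment arrays 1 and 2 alone, 4 were lower there than in first leg discs. Act88F, the flight muscle actin, read -3.55 and -2.59 in fragments, against 0.02 and -0.09 on first leg disc arrays 3 and 4. Prm, paramyosin, read -3.48 and -2.91 in fragments, against -1.23 to -0.53 on 3 first leg disc arrays. The troponin gene TpnC4 read -2.40 and -2.27 in fragments, against 0.04 on first leg disc array 4, and the troponin T gene up read -1.65 and -0.93 in fragments, against -0.40 to 0.16 on 3 first leg disc arrays. Act57B, another muscle actin, went the other way, at -0.23 and -1.03 in fragments, against -3.29 to -1.40 in first leg discs. These genes were not tested.

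The segment of origin differs between the groups. Through arrays that set wing discs against first leg discs (3 arrays) and against second leg discs (3 arrays), 1 of 7121 probes was called between second and first leg discs (0.014%), with 81 at unadjusted p below 0.05. Subtracting this segment difference from the fragment difference, which adds its error, left 14 probes called higher and 49 lower, and 10 of the 37 named genes that were called kept their call. Segment, culture and cutting go with the group and cannot be told apart, and the stock and sex of the larvae behind the fragments are unknown here.

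First leg discs made to express Wg by heat shock gave a further comparison. These 6 arrays held single first leg discs of larvae in which Wg was induced in most cells by heat shocks at 60 h and 72 h after egg laying, with discs taken 3 days later, and they do transdetermine. Of these arrays 5 lay on slide series 7 and 1 on series 6, apart from the fragment arrays on series 5. Wg-expressing discs minus first leg discs gave 441 of 6205 genes called (7.11%), 228 higher (3.67%) and 213 lower (3.43%). This comparison and that of the fragments share the first leg disc arrays, so the direct difference of fragments minus Wg-expressing discs was fitted. It called 896 of 3218 genes (27.8%), 281 higher (8.73%) and 615 lower (19.1%).

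Most of the named changes were also seen against Wg-expressing discs. That comparison reuses the fragment arrays by which most named genes were picked, so it gives no independent support. Cpr51A differed by 4.85, CG9812 by 2.61, regucalcin by 3.23, Inos by 2.35, Mef2 by 2.51 and mnd by -2.33 in fragments minus Wg-expressing discs, all called. Wg-expressing minus first leg discs gave -0.62, 0.48, -0.19, -0.47, -0.46 and 0.40 for the same 6 genes, none called. The gene heca was higher in fragments than in first leg discs (1.80) and lower in Wg-expressing than in first leg discs (-1.91), with fragments minus Wg-expressing discs at 3.71. Thor was higher in both, by 2.75 in fragments and by 2.46 (adjusted p = 0.0449) in Wg-expressing discs, and fragments minus Wg-expressing discs gave 0.29 (adjusted p = 0.763). AP-2alpha was also higher in both, by 1.13 in fragments and by 1.25 in Wg-expressing discs, as was Plc21C, by 1.26 in fragments and by 0.98 in Wg-expressing discs. For AP-2alpha and Plc21C the direct differences of -0.12 (adjusted p = 0.737) and 0.28 (adjusted p = 0.431) were not called. CG34227 was lower in both, at -2.70 in fragments and -2.29 in Wg-expressing discs, with a direct difference of -0.41 (adjusted p = 0.635).

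Gene groups gave further contrasts. Of the 30 proteasome genes 19 were lower in fragments than in Wg-expressing discs, and limma called none of the 30 between Wg-expressing and first leg discs (median 0.14). For ribosome assembly the count was 14 lower of 29, for chaperones 8 lower of 13 and for cuticle proteins 8 higher of 15. Over all genes tested, 8.73% were higher and 19.1% lower in fragments than in Wg-expressing discs. Heat shock was part of how the Wg-expressing discs were made. Cytosolic ribosomal protein genes behaved otherwise: 15 of 81 were lower in Wg-expressing than in first leg discs (median -0.60), against 3.43% of all genes tested. For them fragments minus Wg-expressing discs had a median of 0.10 with 2 higher and 4 lower, both below the shares over all genes. Of 20 Notch pathway genes 5 were lower in Wg-expressing than in first leg discs, and 3 were higher in fragments than in Wg-expressing discs.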

How the data were processed

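The deposited table held log2 ratios of 16505 probes on 39 arrays of 2-colour spotted slides, and per the labels each ratio on the 8 arrays was the reference over the disc sample. The log base and the authors' normalization are not given in the sources used here. Base 2 was assumed. Ratios were turned by sign, so that positive means higher in the disc, and re-centred on each array's median over gene probes (medians from -0.1143 to 0.2134). Of 16361 gene probes, 15367 could be named through RefSeq (release 6) for 11436 genes, and the probe with the most values over the 39 arrays stood for a gene. A probe had to hold values on at least 66.7% and at least 2 arrays of each group.

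Least squares per probe used 11 group coefficients and a dye orientation term over all 39 arrays, followed by limma 3.58.1 (R 4.3.3) with two-sided moderated tests (prior degrees of freedom 3.57). The dye orientation came from the labels' text, 2 of 4 fragment arrays and 3 of 4 first leg disc arrays having the disc as probe 2. The separate dye fields of the labels name 1 dye for the disc on every array and were not used. The file gives neither intensities nor spot counts, so the signal behind a ratio is unknown, and precision is limited by how many arrays there are. The pooled spread understates that of the fragments: over the 2312 probes with 8 values the median SD was 0.487 among fragments and 0.384 among first leg discs. The method was tested on simulated data.

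The genes and the 38 gene lists were chosen with earlier results of these data known. Named genes were the 15 highest and 15 lowest called genes with a symbol, values on all 8 arrays and no overlap, likewise 2 CG genes each way, the markers Cpr51A, Mef2 and mnd, a set of reporter genes, and up to 4 called and 2 uncalled members of each list described. Alternatives covered the 8 arrays alone, the dye term, the spread, missing values, slides, the segment difference, probe averaging and leaving out each array. Centring on shared probes was added after seeing the data. The reporter genes roX1 and roX2 were not analysed here. Python 3.11.15 with pandas 2.3.3 and matplotlib 3.10.9 made the tables and plots.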

Additional observations from a re-analysis of the deposited data

Results flagged for a closer look

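In 5 cases 1 array stood far from the other 3 of its group by Dixon's criterion at the 95% level. Among fragments these were Cpr51A, lowest at 3.86, FASN1, highest at 2.39, Mef2, highest at 4.16, and tfc, highest at 2.45. Among first leg discs Sps1 was lowest, at -1.11. Chance alone marks a group in this way at a rate of 5%, so some such cases are to be expected over the named genes. For Cpr51A the other 3 values were equal to the second decimal.

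For 28 genes the change in fragments and the change in Wg-expressing first leg discs differed. Both changes were taken against wild-type first leg discs, and the test was the direct one of fragments minus Wg-expressing discs. It used the same fragment arrays by which most of these genes were picked. Genes higher in fragments than in Wg-expressing discs, as log2 differences, were CG4382 (6.25), Cpr51A (4.85), heca (3.71), regucalcin (3.23), CG9812 (2.61), Mef2 (2.51), Inos (2.35), Antp (1.48), Nt5b (1.39), gcl (1.12), GstE13 (0.95), Dll (0.89) and Usp15-31 (0.87). Genes lower in fragments than in Wg-expressing discs were DnaJ-1 (-2.34), mnd (-2.33), wbl (-2.21), Sps1 (-1.94), MESR6 (-1.66), san (-1.42), slgA (-1.42), chic (-1.41), Srp54k (-1.30), CG5096 (-1.27), Gar1 (-1.24), icln (-1.17), ATPsynC (-1.02), Dim1 (-0.95) and bip1 (-0.70). The Wg-expressing discs were heat shocked, lay on slide series 7 (5 arrays) and 6 (1 array) and came from another stock than the first leg discs, and these cannot be told apart from Wg.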

How the results depend on the processing

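Of 3832 probes tested, 216 were called higher and 539 lower. The 8 arrays alone gave 31 higher and 88 lower with the dye term, and 36 and 141 without it. Scaling the spread of arrays gave 28 higher and 88 lower, slides of series 5 alone 86 and 212, and subtracting the segment difference 14 and 49. Centring on the shared probes, added after seeing the data, gave 524 higher and 209 lower. Requiring values on all 8 arrays gave 110 higher, and no filter on missing values 328 higher. Leaving out 1 array at a time gave 129 to 313 higher and 335 to 647 lower, with 129 higher without fragment array 3 and 335 lower without first leg disc array 1. The causes were not tested. The other settings kept both counts within 1.5 times. Of 37 named genes called, 23 kept the call in the 8 arrays alone, 12 with scaled spread, 10 with the segment difference subtracted, 25 on series 5 slides and 36 with shared-probe centring. Without fragment array 3, Antp, Dll, DnaJ-1, FASN1, Nelf-A, Usp15-31 and heca lost it. Of the uncalled reporter genes, leaving out 1 array gave -0.01 (without fragment array 1) to 0.82 for puc and -0.31 (without fragment array 4) to 0.51 for wg, with -0.12 for wg without first leg disc array 3 and also without fragment array 1. The segment difference subtracted gave -0.44 for wg. No paired analysis was possible because the replicate numbers follow accession order and pair no samples.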
